A study of Arvicanthis niloticus with 59 samples.

Results

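GABA-A receptor subunit genes were followed through the organs of Arvicanthis niloticus, the Nile grass rat, a rodent that is active by day. The genes were Gabra2, Gabra3, Gabra4, Gabra5, Gabra6, Gabrb2, Gabrd and Gabrg1, picked by symbol out of 18970 genes in the expression tables, and all 8 were found. The tables held 19 subunit genes of this family in all, so 11 others served as company for the 8. Bulk RNA-seq of polyadenylated RNA had been made from 59 libraries of 48 sampled sites in 22 organs. All tissue was labelled healthy and untreated, and it came from 4 animals that the labels call T3F (38 libraries), T173F (12), T426 (8) and T424 (1). The labels state no age or strain.

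The GABA-A receptor is the chloride channel through which the transmitter GABA acts quickly on neurons. It is a ring of subunits, usually of alpha and beta subunits with a gamma or a delta subunit, and the combination sets where the receptor sits and how it answers GABA and drugs such as benzodiazepines. Receptors with the alpha 2 or alpha 3 subunit and a gamma subunit are known chiefly from synapses, whereas the delta subunit is known from receptors outside synapses, where it pairs with alpha 4 in the forebrain and with alpha 6 in granule cells of the cerebellum. In bulk tissue, fewer cells of a type and less RNA per cell cannot be told apart.

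Brain and retina were covered by 13 libraries. The forebrain had 5, namely rostral cortex, caudal cortex, thalamus with hypothalamus, and hippocampus of 2 animals (T3F and T426). The brainstem and cord had 4 (midbrain, pons, medulla oblongata and proximal spinal cord), the cerebellum had 1, and the retina had 3 (left and right eye of T3F, and T426). All brain libraries other than hippocampus T426 came from T3F, so differences between brain regions rest on 1 animal, with no replicate animal for any region but the hippocampus.

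Total expected counts ran from 2472766 to 35863355 in these 13 libraries and from 678819 to 41309569 over all 59. Neuron markers (8 genes) summed to between 4433 and 11614 TPM (a level corrected for transcript length and scaled to a fixed total per library) in the 9 brain libraries of T3F. Both neural libraries of T426 also held sperm cell genes. The summed level of the germ cell markers was 46102 TPM in hippocampus T426 and 122232 TPM in retina T426, against 123 to 199 TPM in the brain libraries of T3F and 145 and 160 TPM in its retinas. Among the sites outside brain and retina, the library labelled liver T3F had hepatocyte markers at 741 TPM and lung alveolar markers at 31332 TPM, and the library labelled pancreas T173F had acinar markers at 1392 TPM where pancreas T3F had 328354. Other libraries of the sites used below also held markers of another tissue: germ cell markers at 22885 TPM in femur T426 and 2082 in sciatic nerve T426, acinar markers at 73354 TPM in sciatic nerve T426 and 12305 in skeletal muscle T3F, and hepatocyte markers at 18305 TPM in renal pelvis T426. Results over these sites are given with and without the T426 libraries of hippocampus and retina, with and without the liver and pancreas sites, and with each library left out in turn. The left and right retina of T3F differed by more than counting noise (chi-square of 13.4 per gene over 15020 genes), and they were counted as 1 animal.

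Of the 8 genes, 7 stood at 0.5 TPM or more throughout brain and retina and 1, Gabra6, did not. In all 13 libraries Gabra2, Gabra3, Gabra4, Gabra5, Gabrb2 and Gabrg1 stood at 1 TPM or more. Gabrd, the delta subunit, reached 1 TPM in 10 of 13 and Gabra6 in 4 of 13. The level of single genes spanned a wide range, from Gabra6 at 683.4 TPM in the cerebellum to Gabra6 listed at 0 in both hippocampus libraries.

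**Figure D1:**
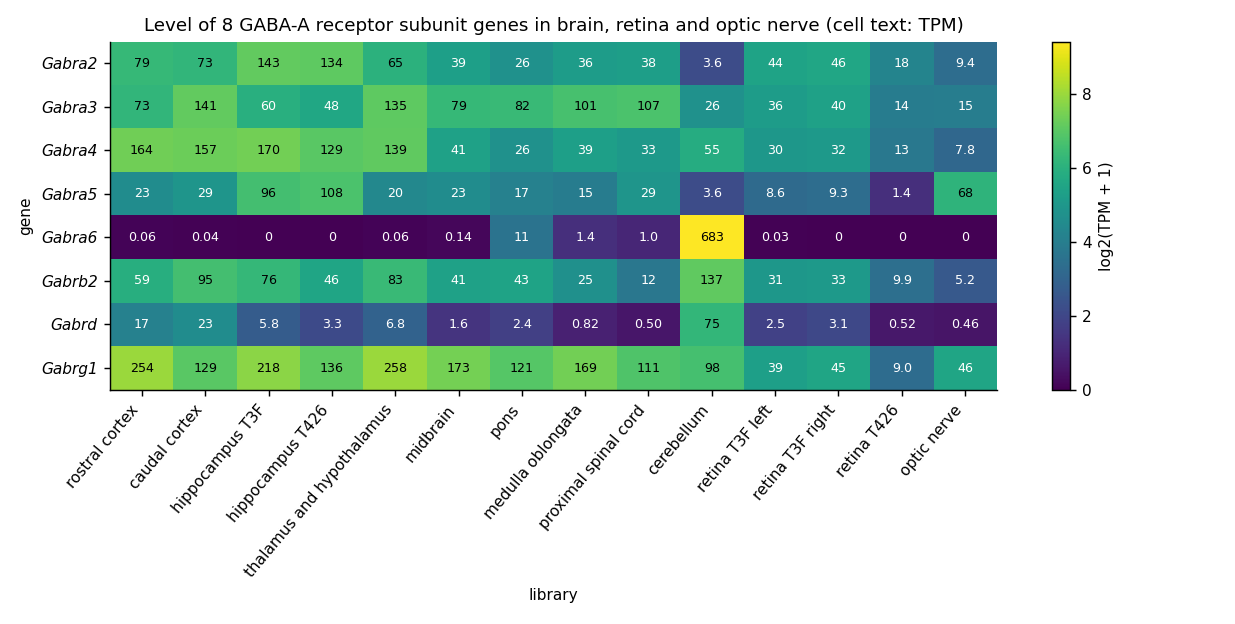
Level of the 8 subunit genes (rows) in the 13 libraries of brain and retina and in the optic nerve (columns). Colour gives log2(TPM + 1) and the number in each cell is TPM; Gabra6 stands at 683 in the cerebellum and at 11.1 or less in every other library.

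Gabra2 encodes the alpha 2 subunit, known from synapses of the forebrain. It was highest in the hippocampus, at 143.0 TPM in T3F and 133.7 TPM in T426 (138.4 ± 6.56, SD, n = 2 animals). The rostral cortex had 79.2 TPM, the caudal cortex 72.7 TPM, and thalamus with hypothalamus 64.8 TPM. In the midbrain it was 38.6 TPM, in the spinal cord 37.9, in the medulla 35.6 and in the pons 26.3. The cerebellum had 3.57 TPM, the lowest of the 13 libraries. Retinal levels were 43.6 and 46.5 TPM in T3F and 18.0 TPM in T426 (31.5 ± 19.1, SD, n = 2 animals), a spread that covers the 4 brainstem and cord values.

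Gabra3, the alpha 3 subunit, is known from brainstem and from monoaminergic neurons. Its highest values were those of the caudal cortex (140.9 TPM) and of thalamus with hypothalamus (134.7 TPM). The spinal cord (107.2), medulla (101.3), pons (81.8) and midbrain (79.3) came next, ahead of rostral cortex (72.9) and hippocampus (60.1 in T3F and 48.4 in T426). Cerebellum had 26.3 TPM, and the retinas 35.9, 40.4 and 14.5 TPM. Among the forebrain sites, rostral cortex and hippocampus thus lay below all of brainstem and cord, and the other 2 above.

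Gabra4 encodes alpha 4, a subunit of extrasynaptic receptors in thalamus, hippocampus and cortex. All forebrain libraries were high, at 163.8 TPM in rostral cortex, 157.1 in caudal cortex, 139.4 in thalamus with hypothalamus, and 169.7 (T3F) and 128.6 (T426) in hippocampus. The hippocampus had a mean of 149.2 ± 29.1 TPM (SD, n = 2 animals), so the other 3 forebrain sites lay within its spread. Cerebellum had 55.5 TPM, and the brainstem and cord libraries 26.2 (pons) to 41.4 TPM (midbrain). The retinas had 30.5, 32.5 and 12.6 TPM.

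Gabra5 encodes alpha 5, known for its concentration in the hippocampus. It had 96.1 TPM in hippocampus T3F and 107.6 TPM in hippocampus T426 (101.9 ± 8.19, SD, n = 2 animals). Every other brain library was far lower: 29.3 TPM in caudal cortex, 29.2 in spinal cord, 23.1 in rostral cortex, 22.6 in midbrain, 20.3 in thalamus with hypothalamus, 16.6 in pons, 14.6 in medulla and 3.58 in cerebellum. The retinas of T3F had 8.62 and 9.34 TPM and that of T426 had 1.41 TPM.

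Gabra6 encodes alpha 6, a known hallmark of cerebellar granule cells. Its 683.4 TPM in the cerebellum rested on 15123 expected counts. The pons had 11.1 TPM (237 counts), the medulla 1.41 TPM (28 counts), the spinal cord 1.03 TPM (20 counts) and the midbrain 0.14 TPM (2 counts). Rostral cortex, caudal cortex and thalamus with hypothalamus had 1 count each, and both hippocampus libraries had none.

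Beside these values stand the markers of cerebellar granule cells. The list of 10 summed to 12403 TPM in the cerebellum, 1109 in the pons, 1097 in thalamus with hypothalamus, 1025 in the midbrain, 830 in the medulla and 743 in the cord, an order unlike that of Gabra6. In the cortex and hippocampus libraries of T3F it summed to 304 to 562 TPM. The list also summed to 15865 TPM in skeletal muscle T3F, above the cerebellum, so a high sum is not particular to granule cells. Of its members, Cbln3 and Fat2 are given singly, chosen after their values were seen. Cbln3 had 2281 TPM in the cerebellum, 54.0 in the pons, 11.2 in the medulla and 8.23 in the cord. In the midbrain and the forebrain libraries it lay between 3.55 and 7.64. Fat2 had 257.4 TPM in the cerebellum, 5.71 in the pons, 0.56 in the medulla and between 0 and 0.30 in the others. Their part in the Gabra6 values outside the cerebellum was not tested.

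Gabrb2, the most widespread beta subunit of the brain, was highest in the cerebellum at 136.5 TPM. Caudal cortex had 95.4 TPM, thalamus with hypothalamus 83.0, hippocampus 76.0 (T3F) and 45.5 (T426), and rostral cortex 58.9. The pons had 43.3 TPM, the midbrain 41.1, the medulla 25.3 and the spinal cord 12.3. The retinas had 30.8, 33.4 and 9.85 TPM. The hippocampus mean of 60.8 ± 21.6 TPM (SD, n = 2 animals) takes in rostral cortex, pons and midbrain.

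Gabrd, the delta subunit, had 75.0 TPM in the cerebellum. Next came caudal cortex with 22.8 TPM and rostral cortex with 16.6. Thalamus with hypothalamus had 6.80 TPM, and hippocampus 5.77 (T3F) and 3.30 (T426). Below them lay the pons (2.45 TPM), midbrain (1.65), medulla (0.82) and spinal cord (0.50). The retinas of T3F had 2.50 and 3.12 TPM and that of T426 had 0.52.

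Gabrg1 encodes gamma 1, a less common gamma subunit that is also known from astrocytes. It had 258.2 TPM in thalamus with hypothalamus, 254.0 in rostral cortex, 218.1 (T3F) and 135.7 (T426) in hippocampus and 128.7 in caudal cortex. Midbrain had 172.7 TPM, medulla 169.4, pons 121.0, spinal cord 111.5 and cerebellum 98.3. The retinas had 39.2, 45.0 and 9.0 TPM. The hippocampus mean of 176.9 ± 58.3 TPM (SD, n = 2 animals) takes in midbrain, medulla, caudal cortex and pons. Every other brain site is 1 library of T3F, so whether its order against hippocampus holds between animals cannot be told.

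Forebrain and brainstem differed most clearly in the alpha 4, delta and alpha 2 genes. Over the 9 brain libraries of T3F, counts were compared with edgeR's quasi-likelihood test, in which a gene counted as called at a Benjamini-Hochberg adjusted p below 0.05 with a change of 1 or more on the log2 scale in either direction. The 4 forebrain libraries stood against the 4 of brainstem and cord, with the sites of a division as replicates within 1 animal. All 8 genes were tested, and 3 of 8 were higher in the forebrain and 0 of 8 lower. Over all 15743 genes tested, 1.46% were called higher and 0.381% lower. The median log2 fold change of the 8 was 1.20, and that of all genes tested was −0.01. The 8 were chosen with earlier results of these data known, so setting them against all genes, here and below, is a description. Gabra6 was among the genes tested only because the cerebellum library was in the fit.

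Gabra4 had a mean of 157.5 ± 13.1 TPM in the forebrain and of 35.0 ± 6.74 TPM in brainstem and cord (SD, n = 4 libraries each), and the values did not overlap. Its log2 fold change was 2.18 ± 0.17 (SE; edgeR adjusted p = 0.00916). Gabrd had 13.0 ± 8.18 TPM against 1.35 ± 0.88 TPM, again without overlap, and a log2 fold change of 3.28 ± 0.63 (edgeR adjusted p = 0.0431). Gabra2 had 89.9 ± 35.9 TPM against 34.6 ± 5.67 TPM, without overlap, and a log2 fold change of 1.39 ± 0.28 (edgeR adjusted p = 0.0447). The share of all genes whose values did not overlap between the 2 divisions was not counted.

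Gabrb2 lay at 78.3 ± 15.2 against 30.5 ± 14.5 TPM and its values did not overlap either, but the edgeR test did not call it (log2 fold change 1.36 ± 0.35, adjusted p = 0.0645); DESeq2 did (adjusted p = 0.0030). Gabra6 had 0 or 1 count in each forebrain library and 2 to 237 in brainstem and cord, and it was not called (edgeR adjusted p = 0.0643). For Gabra5 (42.2 ± 36.1 against 20.8 ± 6.58 TPM), Gabrg1 (214.7 ± 60.1 against 143.7 ± 31.9 TPM) and Gabra3 (102.2 ± 41.6 against 92.4 ± 13.9 TPM) the divisions overlapped. Their log2 fold changes were 1.04 ± 0.52, 0.58 ± 0.24 and 0.13 ± 0.27, with edgeR adjusted p of 0.239, 0.167 and 0.801.

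These calls were close to the threshold. Without hippocampus, medulla or spinal cord the edgeR adjusted p of Gabra4 was 0.0507, 0.0596 and 0.0880, while its log2 fold change stayed between 2.12 and 2.22. The calls of Gabra2 and Gabrd ended without any 1 of 6 libraries: without caudal cortex (adjusted p of 0.110 for both), hippocampus (0.0974 for both), rostral cortex (0.110 for both), medulla (0.137 for both), spinal cord (0.123 for both) or pons (0.129 for Gabra2 and 0.115 for Gabrd). Gabra6 was called lower in the forebrain when the midbrain was left out (adjusted p = 0.0274).

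**Figure D2:**
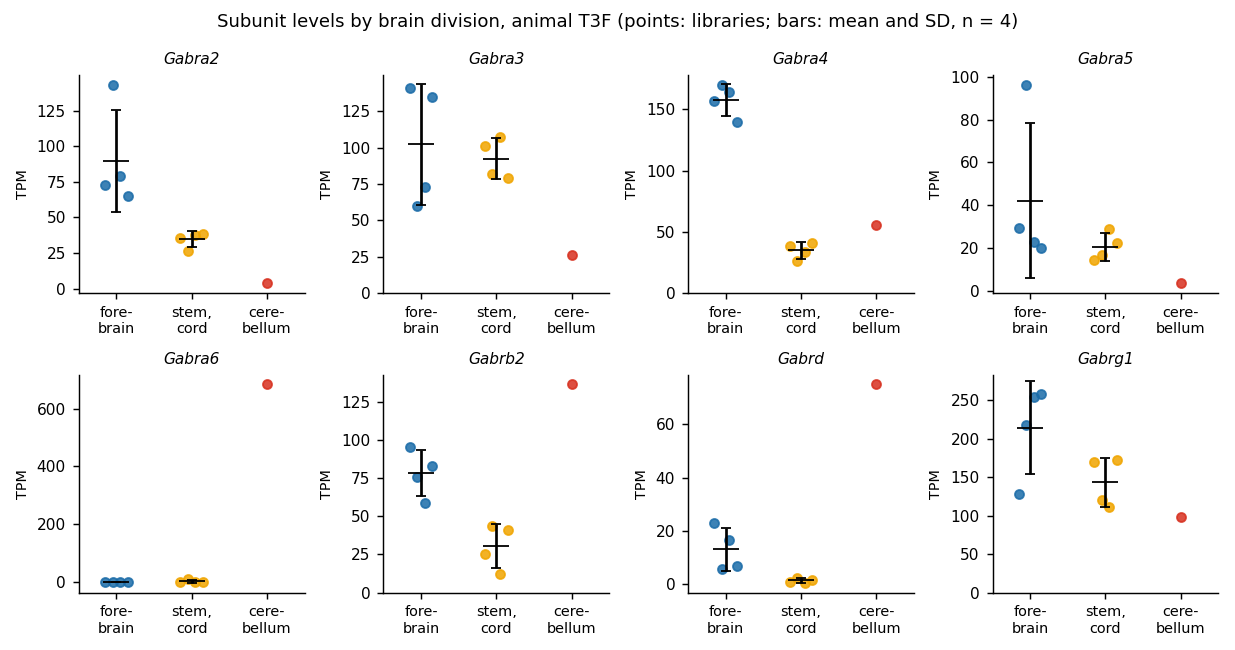
TPM of each subunit gene (1 panel per gene, linear axes) in the 4 forebrain libraries, the 4 brainstem and cord libraries and the cerebellum of animal T3F. Points are libraries, and horizontal marks with bars are the mean and SD of 4; the forebrain points of Gabra4 lie between 139 and 170 TPM and those of brainstem and cord between 26 and 41.

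The cerebellum library had the highest Gabra6, Gabrd and Gabrb2 and the lowest Gabra2, Gabra3, Gabra5 and Gabrg1 of the 9 brain libraries of T3F. The share of all genes that were highest or lowest in the cerebellum was not counted. In the same fit, the cerebellum (1 library, assumed to vary like the other divisions) was set against the mean of forebrain and of brainstem and cord. Of the 8 genes, 2 were called higher and 2 lower, where 4.65% of all genes tested were called higher and 2.99% lower. The cerebellar level of Gabra6 was 394 times the mean of the other 8 brain libraries of T3F, and its log2 fold change was 10.5 ± 1.06 (edgeR adjusted p = 0.000951). Gabra6 passed the filter on low counts only through the cerebellum, since without that library it was not tested, so its call is a description. The fitted value depends on how genes with almost no counts are treated.

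Gabrd in the cerebellum was 10.4 times the mean of the other 8, and above the highest of them, caudal cortex (log2 fold change 3.96 ± 0.64, edgeR adjusted p = 0.00754). Gabra2 stood at 0.0573 of the mean of the other 8 (log2 fold change −4.16 ± 0.57, edgeR adjusted p = 0.00358), below every one of them. Gabra3 stood at 0.271 of that mean (log2 fold change −2.07 ± 0.48, edgeR adjusted p = 0.0304), also below all 8.

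The remaining 4 were not called by edgeR. DESeq2 called 5 of the 8 genes in this comparison, with Gabra5 and Gabrg1 among them. Gabrb2 was above all 8 other libraries, at 2.51 times their mean (log2 fold change 1.30 ± 0.47, adjusted p = 0.114). Gabra5 was below all 8, at 0.114 of their mean (log2 fold change −3.24 ± 1.02, adjusted p = 0.0790), as was Gabrg1 at 0.549 (log2 fold change −1.03 ± 0.39, adjusted p = 0.131). Gabra4 lay between the forebrain and the brainstem values (log2 fold change −0.61 ± 0.26, adjusted p = 0.164). Purkinje cell markers summed to 4882 TPM in the cerebellum and to 90 to 247 TPM in the other 8.

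When the spread was taken from the 10 sites with libraries of 2 animals, only Gabra6 of the 8 was called (log2 fold change 11.4, adjusted p = 0.00724), and of all genes 30 were called higher and 0 lower. Gabrd then had an adjusted p of 0.132, Gabra2 of 0.692 and Gabra3 of 1. The call of Gabra3 also ended without medulla (0.0572), pons (0.0524) or spinal cord (0.0503). Single left-out libraries added calls: Gabra5 without hippocampus (0.0148) or thalamus with hypothalamus (0.0481), Gabrb2 without spinal cord (0.0460) and Gabrg1 without caudal cortex (0.0488).

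Hippocampus and retina were the 2 neural sites that came from the same 2 animals, and all 7 genes that could be tested had lower TPM in retina. In T3F and in T426 alike, each of the 7 had a higher TPM in hippocampus than in any retina of the same animal. The share of all genes with this order was not counted. Summed neuron markers were also higher in hippocampus, at 7149 against 4158 and 4277 TPM in T3F and 5947 against 1278 TPM in T426. In the fit of 20 libraries from 10 sites, 0 of 7 were called by edgeR in either direction, where 0.114% of 17564 genes were called higher in hippocampus and 0.29% lower. At an unadjusted p below 0.05 there were 2, and DESeq2 called 1. Gabra6, with 1 count or none in these libraries, did not pass the filter on low counts.

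Gabra5 had the highest ratio of hippocampus to retina, with 101.9 ± 8.19 TPM in hippocampus against 5.19 ± 5.35 TPM in retina (SD, n = 2 animals). Its log2 fold change was 4.31 ± 1.10 (edgeR adjusted p = 0.181). DESeq2 called it at 4.41 (adjusted p = 0.0070), and so did edgeR without the liver and pancreas sites (4.31, adjusted p = 0.0301). With the animal as a block the value was 4.76 ± 0.98 (edgeR adjusted p = 0.0742).

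For the other 6 the log2 fold changes ran from 1.03 ± 1.39 (Gabra3) to 2.83 ± 1.45 (Gabrg1), with edgeR adjusted p of 0.592 to 1. Between them lay Gabrd (1.5 ± 1.34), Gabrb2 (1.55 ± 1.20), Gabra2 (2.10 ± 0.89) and Gabra4 (2.74 ± 1.49). The retinas of the 2 animals differed: levels in retina T426 were 0.157 (Gabra5) to 0.400 (Gabra4) of those in T3F. In that library the neuron gene Snap25 was at 0.330 of T3F, and the sperm gene Prm2 was at 5373 TPM where it was listed at 0 in T3F. Their part in the lower subunit levels was not tested.

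**Figure D3:**
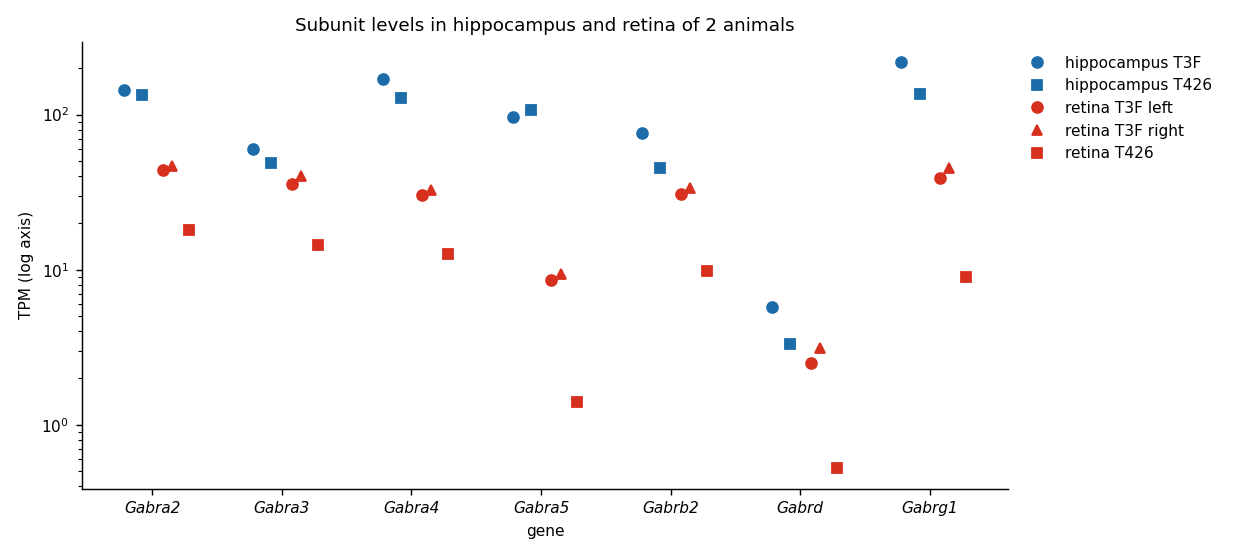
TPM on a log axis of the 7 subunit genes tested, in hippocampus (blue) and retina (red) of animals T3F (circles, and a triangle for the right eye) and T426 (squares). For each gene the retina of T426 is the lowest point, and both hippocampus points lie above all retina points. The share of all genes with this order was not counted.

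The subunit family as a whole was made up differently in the retina. The 8 genes took 14.3% to 16.1% of the summed TPM of all 19 subunit genes in the retinas and 40.4% to 66.0% in the brain libraries. The subunits Gabrr1, Gabrr2 and Gabrr3, which form the slow receptors once called GABA-C and are known from retinal bipolar cells, took 58.1% to 60.2% in the retinas. In the brain they took at most 3.64%, in the midbrain. Gabrr2 alone had 362.2, 388.7 and 159.0 TPM in the retinas and 5.56 and 9.48 TPM in the hippocampus libraries. None of the 11 other subunits was called between hippocampus and retina by edgeR, with 3 at an unadjusted p below 0.05 and 1 called by DESeq2; Gabrr1 stood nearest (log2 fold change −7.95 ± 1.62, adjusted p = 0.117).

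Shares among the 8 genes set each library's make-up apart from its depth. A share is a gene's TPM over the summed TPM of the 8. Count divided by TPM, which reflects the transcript length used, was for Gabrg1 0.104 of that for Gabrb2 and for Gabra3 0.207. Over the libraries with at least 20 counts it ran from 0.104 to 0.105 for Gabrg1 (12 libraries) and from 0.207 to 0.208 for Gabra3 (13 libraries). Orders between genes rest on these lengths.

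Gabra4 made up 22.6 ± 2.24% in the forebrain and 9.62 ± 1.11% in brainstem and cord (SD, n = 4 each; exact two-sided permutation p = 0.0286, adjusted 0.0762). Gabrd made up 1.93 ± 1.32% against 0.380 ± 0.268%, and Gabra6 0.00581 ± 0.00397% against 1.02 ± 1.58%, each with the same exact permutation p. That p is the smallest that 4 against 4 allow, and 0 of 8 shares passed after adjustment over the 8. Gabra3 tended the other way, at 14.9 ± 6.60% against 25.8 ± 5.03% (exact permutation p = 0.0571, adjusted 0.114), with 32.2% in the spinal cord as its highest share.

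Gabrg1 held 30.7 ± 8.35% against 39.4 ± 5.07%, Gabra2 12.7 ± 4.09% against 9.57 ± 1.40%, and Gabrb2 11.3 ± 2.60% against 8.44 ± 4.17%. As shares of expected counts, which weight long transcripts more, Gabrg1 held 7.69 ± 2.84% against 12.2 ± 2.18%, Gabra3 7.27 ± 3.29% against 15.8 ± 3.75% (exact permutation p = 0.0286 and adjusted 0.0571 for both), and Gabrb2 26.3 ± 5.56% against 24.3 ± 10.4%. The Gabra5 share was 5.84 ± 4.49% against 5.82 ± 2.12% (exact permutation p = 1), and within the forebrain it ran from 2.87% in thalamus with hypothalamus to 12.5% in hippocampus T3F. Hippocampus T426 had 17.9%. In the cerebellum Gabra6 alone took 63.2%, Gabrb2 12.6%, Gabrg1 9.09% and Gabrd 6.93%. In the retinas Gabra2 had the largest share of TPM, with 22.8% and 22.1% in T3F and 27.3% in T426. As shares of expected counts, Gabrb2 was ahead of Gabra2 in the left (32.3% against 31.5%) and right (32.3% against 30.9%) retina of T3F. In retina T426 Gabra2 stayed ahead, at 37.0% against 29.4%.

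**Figure D4:**
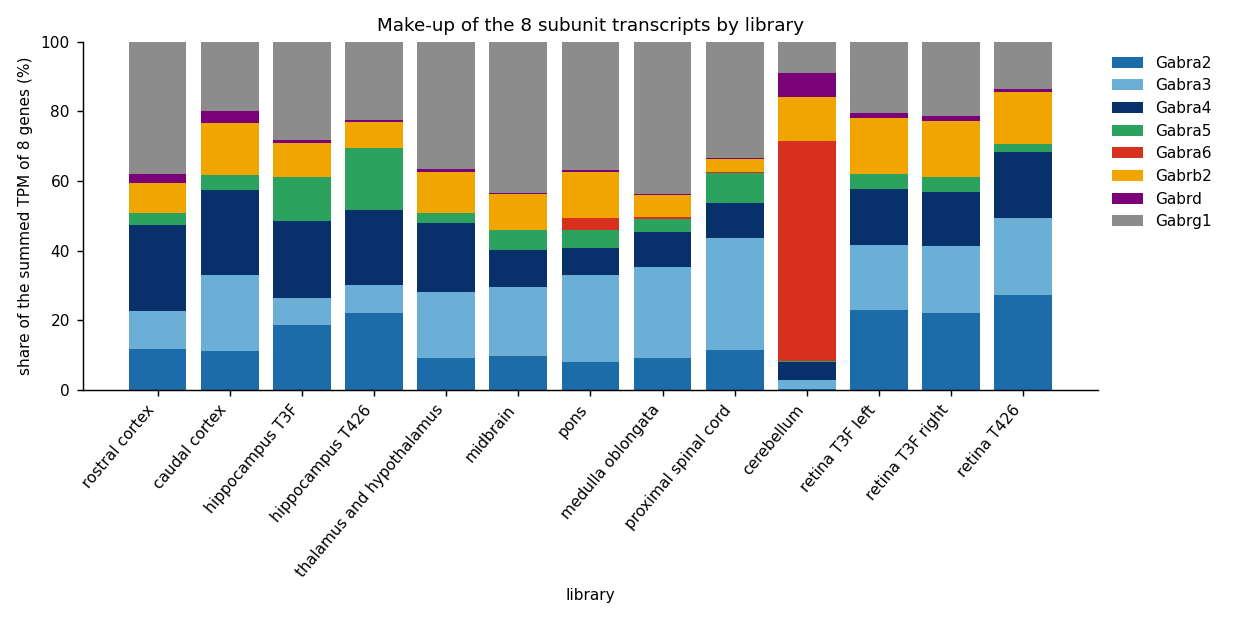
Share (%) of each of the 8 genes in their summed TPM, as stacked bars for the 13 libraries of brain and retina. Gabra6 fills 63.2% of the cerebellum bar, and the Gabra4 part is 19.7% to 24.5% in the forebrain libraries against 7.98% to 10.4% in brainstem and cord.

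Outside brain and retina, the 8 genes were rare in the 46 other libraries. At 1 TPM or more, Gabra3 was found in 15 of 46, Gabrg1 in 9, Gabra2 in 8, Gabra5 in 6, and Gabra4 and Gabrb2 in 4 each. Gabrd and Gabra6 reached 1 TPM in none, and Gabra6 had a single count in 1 of 46 libraries (skeletal muscle T3F). The fit over replicated sites set hippocampus and retina against the mean of 8 sites outside brain and retina (femur, duodenum, renal pelvis, liver, skeletal muscle, sciatic nerve, ovary and pancreas). A gene with hardly any counts at those 8 sites enters such a fit only through hippocampus or retina, where it is high. That 7 of 7 were called higher in both comparisons is therefore a description and no support. Of all genes tested, 15.3% were called higher in hippocampus and 18.8% in retina.

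The fitted log2 fold changes were 8.18 (Gabra3) to 11.2 (Gabra5) for hippocampus and 6.27 (Gabra4) to 8.66 (Gabra2) for retina, but many of these 16 libraries held no count, so the sizes depend on the treatment of zeros. The 7 calls were also made in both comparisons without the libraries of T426 from hippocampus and retina, without the liver and pancreas sites, and without each single library. Levels did touch in places: Gabrg1 had 10.6 TPM in ovary T3F and 9.0 in retina T426, and Gabra5 had 1.71 TPM in renal pelvis T173F and 1.41 in retina T426.

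The optic nerve, a bundle of axons and glia with few nerve cell bodies, had the highest level of every gene but Gabra6 among these 46. Gabra5 reached 68.0 TPM there (2113 counts), above the 8.62 and 9.34 TPM of the retinas of T3F and second only to hippocampus over all 48 sites. Gabrg1 had 45.6 TPM, Gabra3 15.1, Gabra2 9.44, Gabra4 7.77, Gabrb2 5.16 and Gabrd 0.46.

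That library held oligodendrocyte markers at 40822 TPM, astrocyte markers at 10496, neuron markers at 957 and photoreceptor markers at 6097. Gabrr2 was at 52.7 TPM. Their part in the other subunit levels was not tested.

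In the retinal pigment epithelium, the cell sheet behind the retina, 2 genes stood out. Gabrg1 had 38.1 TPM (395 counts), close to the 39.2 and 45.0 of the retinas of T3F, and Gabra2 had 6.00 TPM (411 counts). Of the neuron markers, Snap25 and Stmn2 were at 0.54 and 0.36 TPM in this library, but Syt1 was at 30.3 TPM. The neuron markers summed to 45.1 TPM, and the pigment epithelium gene Rpe65 was at 4102 TPM. Gabrb2 had 1.05 TPM, and the other 5 genes were under 1 TPM.

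Elsewhere the values were scattered. Gabrg1 had 10.6 and 2.67 TPM in the 2 ovaries, 10.3 in a library labelled as adrenal gland under adipose tissue, and 4.56 in the uterus. Gabra2 had 3.10 TPM in each ovary and 3.99 in kidney cortex. Gabra3 had 5.42 TPM in the kidney artery, 4.76 in sciatic nerve T3F, 3.93 in the uterus, 3.62 in the cecum and 3.45 in the right ventricle, and 1.12 in the testis. Gabra5 had 6.37 TPM in the adrenal gland labelled under kidney, 3.17 in the other adrenal library and 3.07 in the colon. Gabra4 had 4.81 TPM in the thymus and 2.24 in pancreas T3F.

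**Figure D5:**
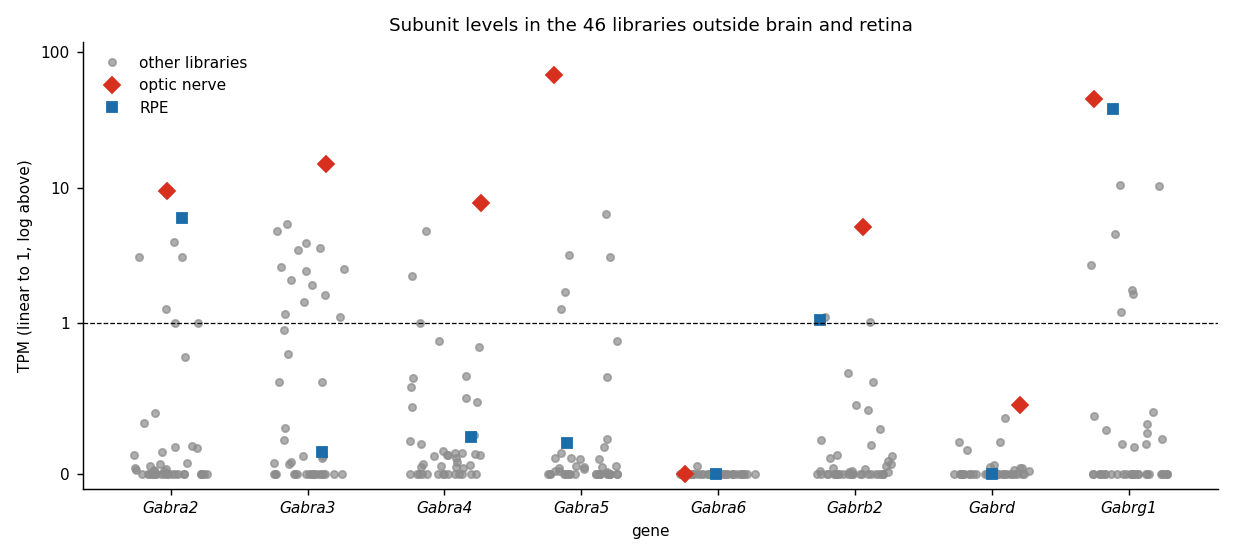
TPM of each subunit gene in the 46 libraries outside brain and retina, 1 point per library, on an axis that is linear up to 1 TPM (dashed line) and logarithmic above. The optic nerve (red diamonds) is highest for 7 of 8 genes and the pigment epithelium (blue squares) second for Gabra2 and Gabrg1.

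Further gene lists of the inhibitory machinery were counted in the same fits. Between forebrain and brainstem, edgeR called 1.46% of all genes tested higher and 0.381% lower. In 4 of these lists no gene was called between forebrain and brainstem: none of the 8 genes for GABA synthesis, transport and breakdown, of 2 GABA-B receptor genes, of 2 chloride transporters or of 5 glycine receptor genes was called; at an unadjusted p below 0.05 there were 2, 2, 1 and 2 of them, and DESeq2 called 0 in each.

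The calls in the cerebellum that follow all ended with the spread of the 10 replicated sites, under which 0 genes were called lower. In the fit of the 9 brain libraries, 2.99% of all genes tested were called lower and 4.65% higher. Gabrg3 (gamma 3) was lower, at 0.05 TPM against 3.43 to 8.62 TPM in the other 8 libraries of T3F (log2 fold change −7.07 ± 0.49, edgeR adjusted p = 0.000135). It was the 1 of 9 other subunits called. Of the anchoring genes, Shisa7, an auxiliary subunit (−3.17 ± 0.65, adjusted p = 0.0193), and Slitrk3, an adhesion protein of inhibitory synapses (−1.48 ± 0.34, adjusted p = 0.0296), were lower, 2 of 15. Of the glycine receptor genes 1 of 5 was lower, Glra4 (−2.76 ± 0.71, adjusted p = 0.0436). The GABA synthesis list had 0 of 8 called, with Gad1, which makes GABA, at 287 TPM in the cerebellum and 101 to 206 in the others (0.91 ± 0.29, adjusted p = 0.0827).

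Hippocampus and retina showed 0 calls in all of these lists, with 1 gene in the glycine receptor list and 0 in the others (the subunits aside) at an unadjusted p below 0.05, and none by DESeq2. Against the 8 sites outside brain and retina, edgeR called 15.3% of all genes tested higher in hippocampus and 18.8% in retina. The other subunits had 7 of 11 higher in hippocampus and 8 of 11 in retina. For GABA synthesis and transport it was 5 of 8 in both, for anchoring 9 and 8 of 16, for glycine receptors 5 of 5 in both, for GABA-B receptors 2 and 1 of 2. DESeq2 called fewer of the other subunits (4 of 11 in both) and of the glycine receptors (1 of 5 in hippocampus and 2 of 5 in retina), and 5 of 8, 10 and 9 of 16, and 2 and 1 of 2 in the other lists. These counts too include genes that are near 0 at the 8 sites. Of the chloride transporters Slc12a5, the neuronal exporter that keeps chloride low, was higher in both, and Slc12a2 in neither.

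For each subunit, the genes with the most similar pattern over the 48 site means were named by Pearson's r of log2(TPM + 1) among 18772 genes. These values are descriptions: all genes share the same libraries, and nearly all sites outside brain and retina are near 0, so that any gene of neurons gains a high r. By Spearman's rank correlation, 0 or 1 of the 3 nearest genes stayed among the nearest 3 of each subunit. Among the nearest of Gabrb2 were Frrs1l (0.984) and Slc4a10 (0.983). Among those of Gabra4 were Prmt8 (0.979) and Myt1l (0.978).

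Gabra2 went with Camkv (0.963), Vstm2b (0.953) and Necab1 (0.951), Gabra3 with Creg2 (0.959), Tvp23a (0.952) and Slc45a1 (0.951), and Gabrg1 with Frmpd4 (0.963), Slco1c1 (0.959) and AI593442 (0.953). Gabra5 went with the glycine receptor gene Glra4 (0.929), the potassium channel Kcnq3 (0.928) and Stmn4 (0.924), and of these Glra4 and Stmn4 were, unlike Gabra5, highest in the optic nerve. Gabrd went with Crhr1 (0.919), Grin2a (0.891) and Cnksr2 (0.888). For Gabra6 the 3 nearest genes, Tas2r121, Gm15127 and Vmn1r199, tied at 0.922 and were all highest in the cerebellum, so this r rests on 1 library.

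In the RefSeq annotation of the species, whose build is not stated to be the one used for the tables, 8 of 8 genes were matched and most lay beside other subunits. Gabrb2 and Gabra6 followed each other directly on chromosome 6. Gabrg1, Gabra2, Gabra4 and Gabrb1 lay on chromosome 7, with 1 gene between Gabra2 and Gabra4. Gabra5 sat next to Gabrg3 on chromosome 1, Gabra3 next to Gabrq on X, and Gabrd alone on chromosome 5.

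Direct neighbours did not share their pattern over brain libraries. Gabra6 and Gabrb2 stand side by side, yet Gabrb2 had 12.3 TPM or more in each of the 10 brain libraries, while Gabra6 had 1.41 TPM or less in 8 of them. Gabrg1 and Gabra2, also side by side, stood in the cerebellum at 98.3 and 3.57 TPM. Over the 13 libraries of brain and retina, Pearson's r of log2(TPM + 1) was highest for Gabrb2 with Gabrd (0.872), which lie on different chromosomes, and lowest for Gabra2 with Gabra6 (−0.812), a value that rests on the cerebellum.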

How the data were processed

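Per the submitters' processing notes, reads were handled with Bowtie 0.12.8 and RSEM; the reference build is not given in the sources used here. The authors deposited 2 tables: expected counts per gene and library, not normalized, and TPM, scaled per library for length and depth. Of the expected counts 54.8% were whole (tolerance 1e-09), and all were rounded for testing. Counts were tested with edgeR 4.0.16 (quasi-likelihood, TMM, filterByExpr, Benjamini-Hochberg over all genes), with DESeq2 1.42.0 as the alternative, in R 4.3.3; shares by exact permutation (scipy 1.17.1) over 70 splits. Scripts were tested on simulated data with 200 changed genes. Levels and shares use TPM; correlations use a pseudocount of 1. Genes were named by rule: all 8 members, up to 4 per gene list and comparison by adjusted p, and the 3 most correlated genes among those reaching 5 TPM at a site. Some genes these rules pick, and the counts of other subunits and anchoring genes between forebrain and brainstem, are not reported here.

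The members and gene lists were chosen with earlier results of these data known. Hippocampus and retina came from the same 2 animals and deviated together (r = 0.821), so animal was also fitted as a block. RefSeq (assembly mArvNil1.pat.X) gave gene order only; 14498 symbols of the table were matched. No source states separate cultures or dissections, so p-values over brain sites measure the spread between sites of 1 animal.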

Additional observations from a re-analysis of the deposited data

Results flagged for a closer look

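A library stood apart from the other 3 of its division in 4 of 32 groups of 4 examined, where chance gives about 1 in 20. The groups hold each gene both as TPM and as share in the same libraries. They are therefore not independent, and 4 of 32 cannot be read as an excess over chance. Gabra5 in hippocampus T3F, at 96.1 TPM, lay far above the other 3 forebrain libraries, and hippocampus T426 had 107.6 TPM. In the brainstem and cord all 3 cases were the pons: Gabra6 at 11.1 TPM, the Gabra6 share at 3.38%, and the Gabra4 share at 7.98%, below the other 3.

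In 19 pairs of gene and library, a library used in no test had a level above the highest of the 16 libraries of the 8 replicated sites outside brain and retina. The optic nerve gave 7: Gabra2 9.44 TPM, Gabra3 15.1, Gabra4 7.77, Gabra5 68.0, Gabrb2 5.16, Gabrd 0.460 and Gabrg1 45.6. The pigment epithelium gave Gabra2 at 6.00 TPM and Gabrg1 at 38.1 TPM, against at most 3.10 and 10.6 in the 16. Kidney cortex had Gabra2 at 3.99 TPM, the kidney artery Gabra3 at 5.42 (against 4.76) and the thymus Gabra4 at 4.81 (against 2.24). Gabra5 had 6.37 TPM in the adrenal gland labelled under kidney, 3.17 in the one labelled under adipose tissue and 3.07 in the colon, against 1.71. Gabrd, at most 0.0569 TPM in the 16, had 0.368 TPM (10 counts) in the adrenal gland under kidney, 0.210 in ileum (19 counts) and in jejunum (15 counts), and 0.159 in colon (8 counts). Each of these is 1 library with no replicate.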

How the results depend on the processing

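Besides leaving out single libraries, 3 settings moved the count of called subunits by over 1.5 times: hippocampus against retina had 1 with DESeq2 and 1 without the liver and pancreas sites in place of 0 (Gabra5 in both), and the cerebellum had 1 with the spread of the 10 replicated sites in place of 4. Leaving out 1 library gave 0 to 4 of 8 called for forebrain against brainstem (3 in the full fit), 3 to 5 for the cerebellum, 0 to 0 for hippocampus against retina and for shares (where 3 against 4 libraries cannot go below an exact p of 0.0571, so that 0 was fixed), and 7 to 7 for hippocampus and for retina against the 8 other sites.

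Over all genes, hippocampus against retina had 71 called: 593 with DESeq2, 523 without liver and pancreas, 121 with the animal as a replicate block, 0 with hippocampus and retina libraries only, 0 without the T426 libraries of both, and 0 to 240 without 1 library. The block ended or added no call of a subunit in the 3 comparisons over animals. No paired analysis was possible for the brain divisions because they came from 1 animal. Hippocampus against the 8 sites had 3266 called, 1630 without T426 and 5107 without liver and pancreas (1674 to 4809 without 1 library); retina had 4260, and 1551 without T426 (1715 to 6026). Forebrain against brainstem had 290, and 1114 with DESeq2, 834 without midbrain and 1386 without thalamus with hypothalamus (0 to 1386). The cerebellum had 1203, 1981 with DESeq2 and 30 with the spread of the replicated sites (860 to 1665). The causes were not tested.

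Values near 0 changed sign. Gabra3 in forebrain against brainstem was 0.13, and −0.0876 without caudal cortex (adjusted p = 0.875; −0.0876 to 0.289 without 1 library). The difference in Gabra5 share, 0.0217 points, was −3.10 by expected counts, −0.101 over all 19 subunits, and −2.20, −0.664, −0.233 and −0.0190 without hippocampus, medulla, pons and midbrain (−2.20 to 1.01 without 1 library). At 0.5 and 2 TPM in place of 1, Gabra3 was found in 19 and 10 of the 46 libraries outside brain and retina. Gabra6 had no adjusted p by DESeq2 in the brain fits. Among brain and retina, depth limits hippocampus T426 and retina T426 most (3006119 and 2472766 counts), and Gabra6 outside cerebellum, pons, medulla and cord lies at or under 2 counts.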
